A study of Homo sapiens with 20 samples.

Results

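Gene expression in CD133-positive cells was compared between EIF4G2 knock-down and control, using 5 CD133+ EIF4G2KD libraries and 4 CD133+ Control libraries, which are 9 of the 19 libraries of the series with counts. The libraries were chosen by their labels alone, and every gene that passed a filter on low counts was tested. The cells were HEC-1A, an established human endometrial adenocarcinoma line, infected with lentiviral pLKO.1-puro vectors, selected in puromycin and kept as stable pools. Control cells carried an shRNA to GFP according to the study's methods, while the labels of the libraries name the control shNT. EIF4G2KD cells carried a single shRNA to EIF4G2 (DAP5). By the methods, all groups share infection, vector and selection. Each pool was separated on magnetic beads for the surface protein CD133 and then sorted by flow cytometry and made into bulk libraries that count the 3′ ends of transcripts (MARS-seq). The labels number replicates 1 to 5. The library of CD133+ Control replicate 3 failed the authors' quality check according to its label and was not analysed here, and the series text speaks of 4 independent experiments. One shRNA in 1 cell line was studied, and since the labels do not tie each replicate to its own culture, p-values here reflect only library-to-library spread, part of which could be technical.

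EIF4G2 is a relative of the scaffold protein eIF4G that lacks the part which holds the cap-binding protein eIF4E. It takes part in translation initiation on chosen mRNAs by routes other than the usual cap-dependent one. CD133, encoded by PROM1, is a membrane glycoprotein used as a surface marker to enrich stem-like cells from several epithelial tumours, endometrial carcinoma among them. A bulk count of mRNA does not measure translation, and in bulk samples fewer cells of a kind and less RNA per cell cannot be told apart.

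The targeted gene was read first. EIF4G2 was at 349.8, 270.0, 129.5, 231 and 253 CPM (counts scaled to the same library size after normalisation by trimmed means of M-values, TMM) in CD133+ EIF4G2KD replicates 1 to 5, and at 377, 360.2, 275 and 335 CPM in CD133+ Control replicates 1, 2, 4 and 5. The knock-down mean of 247 ± 79.3 CPM (SD, n = 5) was 73.3% of the control mean of 337 ± 44.6 CPM (SD, n = 4), and the groups overlapped, since knock-down replicate 1 lay above control replicates 4 and 5. The difference of −90.0 CPM gave p = 0.0635 in a two-sided exact permutation test over all regroupings of the 9 libraries, whose smallest possible p is 0.00794. In edgeR's quasi-likelihood test over all genes, the log2 fold change was −0.45 (SE 0.34, adjusted p = 0.52). Each of the 4 knock-down libraries with a same-numbered control was below it. In CD133-negative cells the same shRNA went with 35.6% of the control level. The difference between the 2 fractions had an adjusted interaction p of 0.34. Knock-down replicate 3 held the lowest EIF4G2 count of the 9 libraries, and the count of called genes without it is given below.

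The libraries held 2198601 to 4640652 counts. All 5 epithelial markers examined (EPCAM, CDH1, KRT8, KRT18 and KRT19) were present, with summed levels of 3368 to 3937 CPM in the knock-down and 3481 to 4236 CPM in the control libraries. None of 8 fibroblast and none of 4 endothelial markers was in the table, and of 7 leukocyte markers only CD68 was, at 0.657 to 2.45 CPM. PROM1, the gene of the sorted protein, was at 26.4, 23.3, 12.9, 21.8 and 23.4 CPM in the knock-down and 16.5, 11.6, 11.8 and 13.6 CPM in the control libraries. It did not pass the edgeR test (log2 fold change 0.68, SE 0.27, adjusted p = 0.15). Its adjusted p was 0.098 with DESeq2, 0.060 with replicate number as a block in edgeR, and 0.042 with limma-voom (log2 fold change 0.70). CD44, another surface marker of stem-like cells, did not pass in edgeR either (log2 fold change −0.48, adjusted p = 0.38).

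Of 10338 genes tested, 619 (5.99%) were called, meaning an adjusted p under 0.05, a log2 fold change beyond 0.58 in either direction and a mean normalised count over 10. Among them 268 (2.59%) were higher and 351 (3.4%) lower in the knock-down. The median log2 fold change over all genes tested was 0.01. In 518 of the called genes the 5 knock-down and the 4 control values did not overlap, as in 10.1% of all genes tested. Leaving out 1 library at a time gave 466 to 617 called genes, with 601 without knock-down replicate 3, and 333 of the 619 were called in each of those 9 fits. Unless said otherwise, each gene called in the text kept its call when any 1 of the 9 libraries was left out. The size of the difference was mostly moderate. Of the called genes, 269 differed by more than 1 on the log2 scale, 101 higher and 168 lower, and 62 by more than 2, 24 higher and 38 lower.

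The called genes were unevenly spread over the chromosomes. On 5 of 41 chromosome arms the median log2 fold change was beyond 0.25 in size, and the other 36 arms had medians between −0.15 and 0.12. The lowest of these 36 was 7q, where 71.6% of 328 tested genes had a negative value. Genes of 1q were mostly higher, with a median of 0.50 over 454 tested genes, of which 91.2% had a positive value. On that arm 105 genes were called higher and 5 lower. Genes of both arms of chromosome 9, of 19q and of 21q were mostly lower. The median was −0.66 on 9p (99 genes, 0 called higher and 35 lower), −0.46 on 9q (346 genes, 3 and 61), −0.43 on 19q (419 genes, 3 and 59) and −0.45 on 21q (98 genes, 0 and 12). These 5 arms held 13.7% of the genes tested and 45.7% of the genes called. Outside them 336 of 8922 genes (3.77%) were called, 157 higher and 179 lower, against 283 of 1416 (20%) inside.

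**Figure D1:**
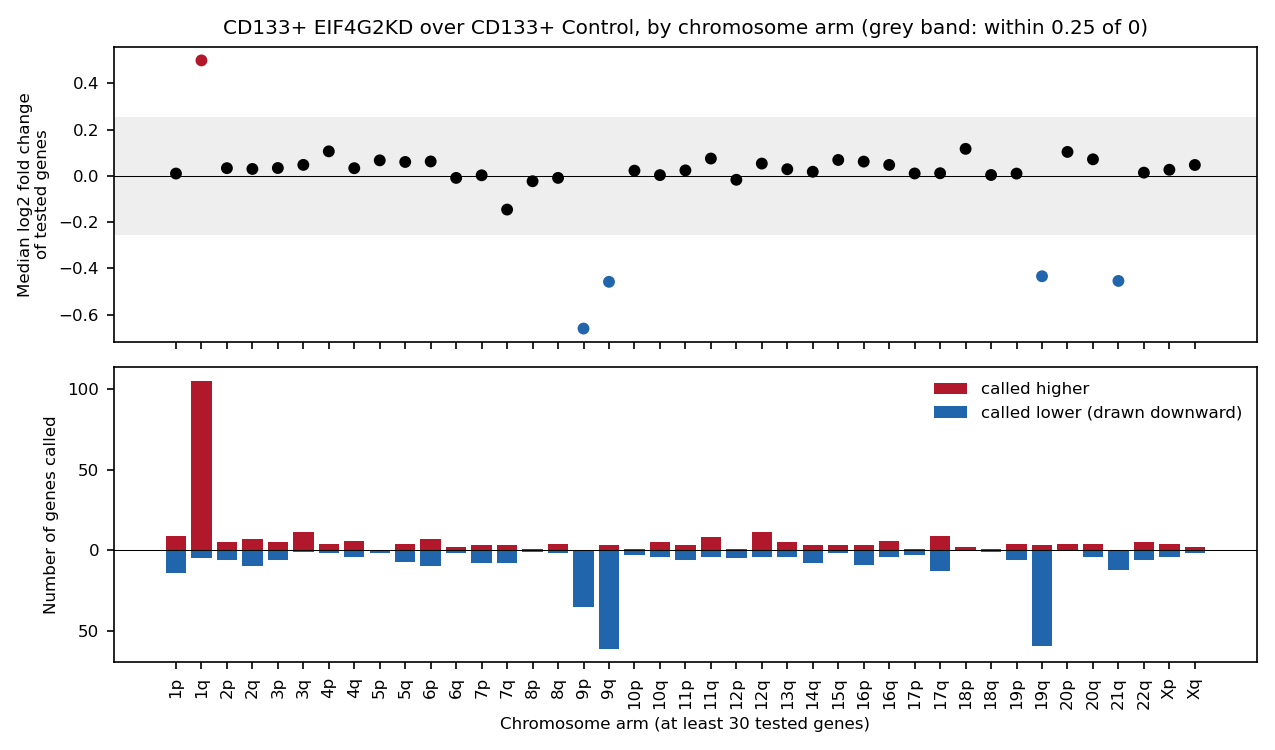
Median log2 fold change of CD133+ EIF4G2KD over CD133+ Control for each chromosome arm with at least 30 tested genes. The 1q median of 0.50 and the medians of −0.66 on 9p, −0.46 on 9q, −0.43 on 19q and −0.45 on 21q stand outside the range of −0.15 to 0.12 of the other arms.

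The difference ran along the whole length of these arms and was in every knock-down library. In bins of 25 neighbouring tested genes the median stayed between 0.35 and 0.58 on 1q, between −0.80 and −0.57 on 9p, between −0.58 and −0.25 on 9q and between −0.57 and −0.23 on 19q. The other arms of chromosomes 1 and 19 had medians of 0.01 and 0.01. As a level per library, the median of log2 CPM over the genes of 1q minus the mean of the control libraries was 0.54, 0.48, 0.41, 0.53 and 0.53 in knock-down replicates 1 to 5, while the control libraries lay between −0.03 and 0.03. On 9p the 5 levels were −0.67, −0.63, −0.52, −0.69 and −0.70. Knock-down replicate 3 was the nearest to the control on 1q, 9p, 9q and 21q. In CD133-negative cells, the other fraction of these pools, the knock-down medians of 1q, 9p, 9q, 19q and 21q were 0.00, 0.11, 0.09, 0.04 and 0.03. On the same scale as above, set to the CD133+ Control libraries, the mean levels of the CD133-negative Control and EIF4G2KD libraries were −0.16 and −0.06 on 9p, −0.11 and −0.05 on 9q, and −0.15 and −0.15 on 21q. They were 0.05 and 0.06 on 1q, and −0.05 and 0.01 on 19q. On 7q they were −0.14 and −0.16, beside −0.14 in the CD133+ EIF4G2KD and 0.01 in the CD133+ Control libraries. There the CD133+ Control libraries were the ones that stood apart. Whether DNA copy number differs between the libraries was not tested. For genes of the 5 arms a difference that all their neighbours share cannot be told apart from one of the gene itself.

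**Figure D2:**
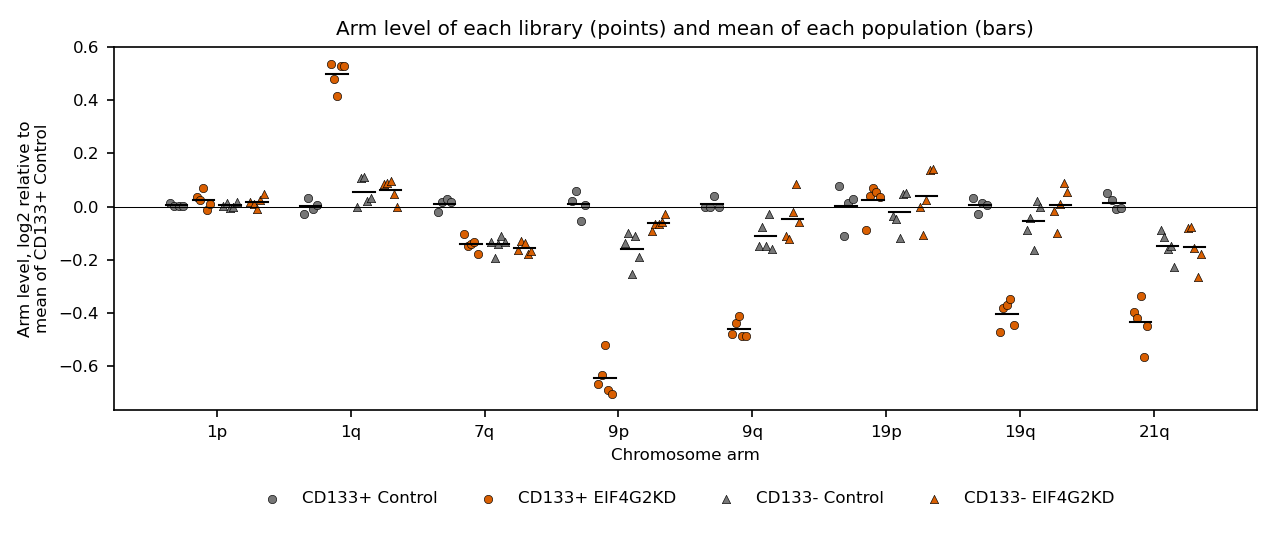
Level of chromosome arms in each library, as the median over genes of log2 CPM minus the mean of the 4 CD133+ Control libraries. The 5 CD133+ EIF4G2KD libraries stand apart from the 4 CD133+ Control libraries on the 5 arms with median log2 fold changes beyond 0.25 in size. Their levels are 0.41 to 0.54 on 1q and −0.70 to −0.52 on 9p in the CD133+ EIF4G2KD libraries.

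Among the called genes of these arms, those with the smallest adjusted p are described first. The log2 fold change needed for a call is larger in size than the medians of 1q, 9q, 19q and 21q. Called genes in the direction of those arms therefore exceed the arm median by selection, which is no separate finding. The 9p median lies beyond that limit, but choice by small adjusted p favours large changes there too. On 9q TBC1D2, which regulates RAB7 in endosome traffic and cadherin turnover, was at 36.7, 32.7, 40.2, 19.4 and 39.8 CPM in the knock-down and 119, 98.5, 102 and 121 CPM in the control libraries (log2 fold change −1.70, SE 0.17, adjusted p = 1.7e-06). On 9p the genes with the smallest adjusted p included CLTA, a clathrin light chain (−1.07), STOML2, a protein of the mitochondrial inner membrane (−0.89), GLIPR2 (−2.58) and UBAP1, a part of the ESCRT-I sorting complex (−1.07), all as log2 fold changes. DHDH, a dihydrodiol dehydrogenase on 19q, had −1.53, and on 21q FAM207A had −0.99, the ubiquitin-conjugating enzyme UBE2G2 −0.86 and the calcium channel TRPM2 −1.02. UBAP1 overlaps KIF24, FAM207A overlaps LINC01547 and TRPM2 overlaps its antisense RNA. Exceptions were few. On the 4 arms with lower medians 6 genes were called higher, among them ALDH1A1, TNNI3 and DAPK1. DAPK1, a calcium- and calmodulin-dependent kinase linked to cell death, lies on 9q and was at 38.9, 32.3, 22.2, 33.6 and 37.3 CPM in the knock-down against 9.03, 6.2, 7.23 and 6.33 CPM in the control libraries (log2 fold change 2.17, adjusted p = 1.4e-05). On 1q the 5 genes called lower included the noncoding RNAs LINC00869 (−3.62), LINC01138 (−1.67) and SERTAD4-AS1 (−1.74).

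The largest rise of all was that of BAHCC1, a chromatin protein that reads a repressive mark on histone H3. BAHCC1 was at 27.5, 27.4, 38.4, 33.1 and 28.9 CPM in knock-down replicates 1 to 5 and at 0.215, 0, 0.985 and 0.243 CPM in control replicates 1, 2, 4 and 5. It was near 0 in every control library and well above it in every knock-down library. The log2 fold change was 6.32 (SE 0.54, adjusted p = 2.2e-07), and because only 5 counts over the 4 control libraries stand against 450 over the 5 knock-down libraries, its size rests on few control counts. The next was SCIN, scinderin, a calcium-dependent protein of the gelsolin family that severs actin filaments. It was at 72.1, 82.1, 53.8, 58.2 and 76.2 CPM in the knock-down and 1.72, 1.55, 1.31 and 1.95 CPM in the control libraries, again with no library between the groups (log2 fold change 5.34, SE 0.41, adjusted p = 3.6e-08). In CD133-negative cells their knock-down log2 fold changes were 0.30 and 0.98 (adjusted p = 0.84 and 0.36). The difference between fractions was 6.02 for BAHCC1 (SE 0.75, adjusted p = 6.4e-05) and 4.35 for SCIN (SE 0.53, adjusted p = 6.0e-05).

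The largest fall was that of FUOM, fucose mutarotase, which interconverts the alpha and beta forms of the sugar L-fucose. FUOM was at 3.51, 4.08, 8.61, 2.37 and 2.5 CPM in the knock-down and 70.1, 69.8, 51.2 and 81.3 CPM in the control libraries. Knock-down replicate 3 held the highest of the 5 low values, and it was still far under the lowest control (log2 fold change −4.01, SE 0.29, adjusted p = 1.1e-08). FUOM differed from the CD133-negative comparison too, by −3.86 (SE 0.37, adjusted p = 1.9e-06). BAHCC1 and SCIN had the largest rises and FUOM the largest fall, so the RefSeq sequence around each start site (250 bases before to 50 after, GRCh38.p14) is shown for its content of CpG, the dinucleotide that can be methylated, printed in capitals. BAHCC1 lies at chr17:81395207-81395506 on the plus strand, SCIN at chr7:12570470-12570769 on the plus strand and FUOM at chr10:133357970-133358269 on the minus strand.
BAHCC1: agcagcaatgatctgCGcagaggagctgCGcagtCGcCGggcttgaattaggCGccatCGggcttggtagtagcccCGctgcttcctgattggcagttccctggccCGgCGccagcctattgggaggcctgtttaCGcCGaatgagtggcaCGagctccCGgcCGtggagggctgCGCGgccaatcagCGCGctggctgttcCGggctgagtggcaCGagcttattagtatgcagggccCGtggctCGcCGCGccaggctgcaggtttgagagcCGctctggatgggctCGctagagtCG
SCIN: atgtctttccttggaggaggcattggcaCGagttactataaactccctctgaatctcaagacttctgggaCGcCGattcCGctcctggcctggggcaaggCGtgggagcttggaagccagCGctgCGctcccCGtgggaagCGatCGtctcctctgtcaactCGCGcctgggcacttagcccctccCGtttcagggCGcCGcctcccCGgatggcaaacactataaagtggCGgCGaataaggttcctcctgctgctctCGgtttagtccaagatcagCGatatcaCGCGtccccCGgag
FUOM: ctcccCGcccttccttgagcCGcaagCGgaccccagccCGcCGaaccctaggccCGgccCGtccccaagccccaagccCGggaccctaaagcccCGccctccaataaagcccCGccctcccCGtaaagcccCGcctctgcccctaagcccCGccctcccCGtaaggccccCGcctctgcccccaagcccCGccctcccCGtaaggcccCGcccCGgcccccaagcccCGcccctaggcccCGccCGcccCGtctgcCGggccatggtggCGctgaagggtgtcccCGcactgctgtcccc
The 3 windows hold 27, 23 and 26 CpG, within the quartiles of 19 and 35 around the median of 27 over 8335 promoters of tested genes. Methylation was not measured. Over the called genes the median was 26 CpG for those higher and 26 for those lower, and for the 16 matched genes higher by more than 2 on the log2 scale it was 16, with quartiles of 6.5 and 27, against 26, with quartiles of 10 and 36, for the 25 matched genes lower by more than 2. No test was made of that difference.

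**Figure D3:**
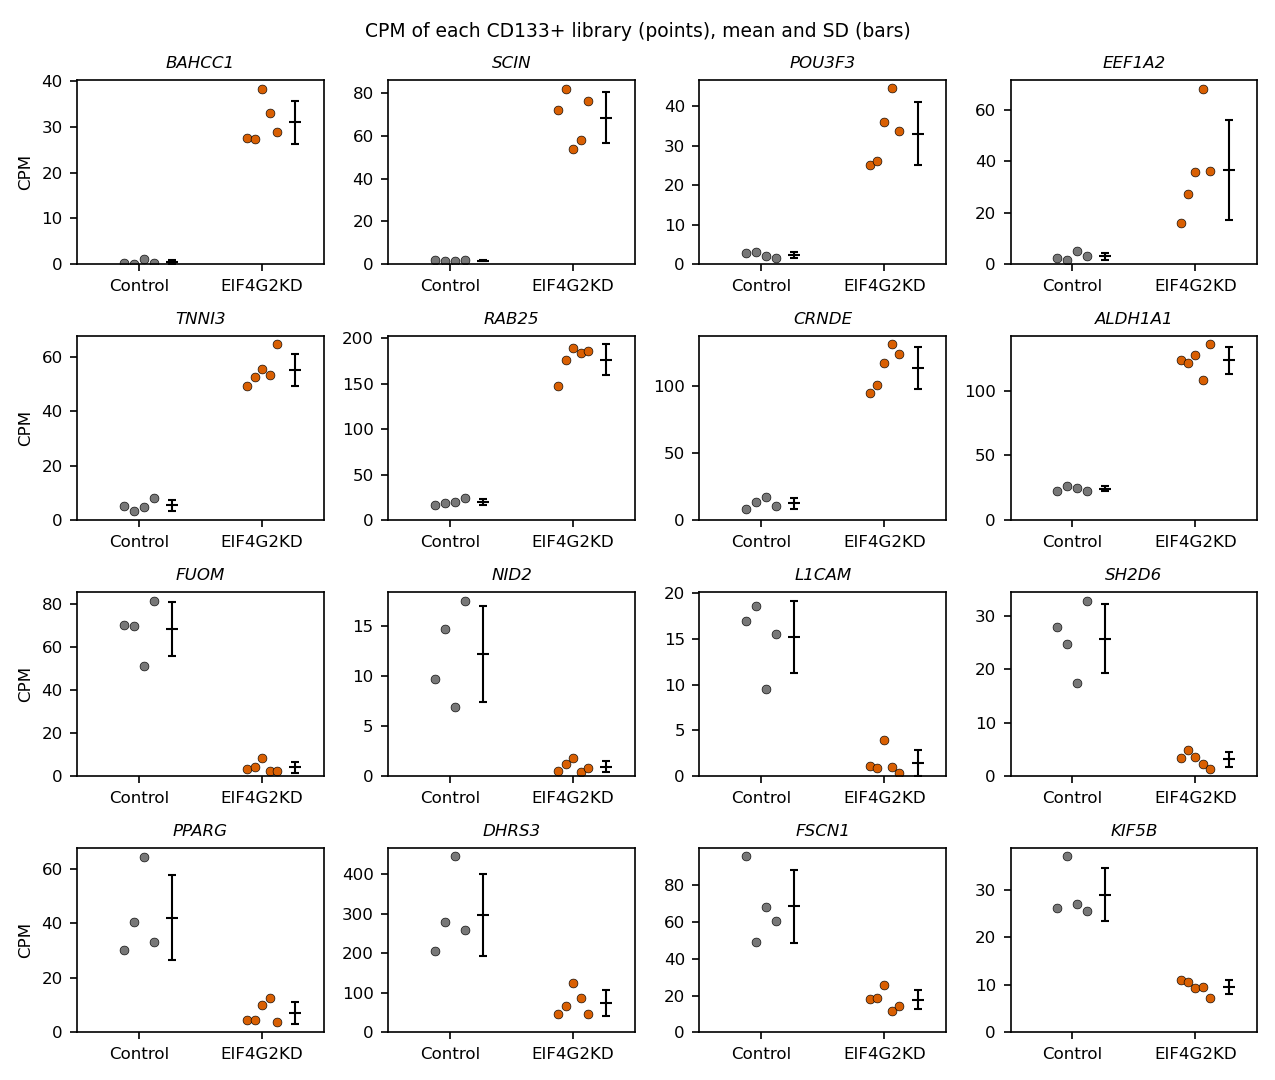
CPM in each CD133+ Control and EIF4G2KD library for genes the text describes, with points for libraries and the mean with SD for each group, each panel on its own linear axis. BAHCC1 stands at 27.4 to 38.4 CPM in the knock-down against at most 0.985 CPM in the control, and FUOM at 2.37 to 8.61 CPM against at least 51.2 CPM.

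The next rises covered genes of different roles. POU3F3, a POU-domain transcription factor of brain and kidney development, was at 25.1, 26.1, 35.9, 44.5 and 33.6 CPM in the knock-down and 2.79, 3.1, 1.97 and 1.46 CPM in the control libraries (log2 fold change 3.82, SE 0.26, adjusted p = 4.7e-09). EEF1A2, the form of translation elongation factor 1A that replaces EEF1A1 in neurons and muscle, was at 15.9, 27.4, 35.9, 68.1 and 36.1 CPM against 2.36, 1.55, 4.93 and 3.17 CPM (log2 fold change 3.58, adjusted p = 6.4e-05). Its 5 knock-down values spread widely, with replicate 4 the highest, but none reached down to a control. TNNI3, cardiac troponin I, was at 49.4, 52.7, 55.6, 53.5 and 64.5 CPM against 5.37, 3.49, 4.93 and 8.28 CPM (log2 fold change 3.28, SE 0.22, adjusted p = 4.7e-09), although its arm, 19q, was lower as a whole. PPP2R2C, a brain-type regulatory subunit of protein phosphatase 2A, had a log2 fold change of 3.48, and SP140, a nuclear body protein of lymphoid cells, one of 3.63. SP140 overlaps SP110, so reads between them may be shared. The small Cajal body RNA SCARNA26A had 4.78 from 4 control counts and lies within YY1AP1. Without knock-down replicate 2 or 3 its mean count fell under 10, which ended the call (adjusted p between 0.0051 and 0.030 over the 9 fits that left out a library).

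RAB25, an epithelial GTPase of the recycling endosome, rose from a level already well measured. It was at 147, 176, 189, 184 and 186 CPM in the knock-down and 17, 18.6, 19.7 and 24.1 CPM in the control libraries, with little spread inside either group (log2 fold change 3.15, SE 0.18, adjusted p = 6.7e-10). RAB25 lies on 1q, where the median was 0.50. The noncoding RNA CRNDE, named for its rise in colorectal neoplasia, was at 94.2, 100.1, 117, 131 and 124 CPM against 7.95, 13.6, 17.4 and 10.7 CPM (log2 fold change 3.21, adjusted p = 3.7e-07). TMEM132D-AS1, another noncoding RNA, was at 204, 168, 239, 224 and 147 CPM against 16.5, 28.3, 29.2 and 18.5 CPM (log2 fold change 3.10). In neither did a knock-down library come near a control. SERPINA5, the protein C inhibitor, rose by less and from a lower level (log2 fold change 2.70, mean 10.5 ± 1.65 CPM against 1.58 ± 0.266 CPM). TINAG, a basement membrane antigen of kidney tubules, had a log2 fold change of 3.25, and its mean count fell under 10 without knock-down replicate 1, 2 or 5, which ended the call although the adjusted p stayed at or under 0.0040. TERC, the RNA of telomerase, had 2.48 and lost its call without control replicate 1 or 4, with adjusted p up to 0.072.

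The large falls included adhesion and other surface molecules. L1CAM, a cell adhesion molecule of the nervous system that marks aggressive endometrial carcinomas, was at 1.08, 0.817, 3.95, 0.946 and 0.278 CPM in the knock-down and 17, 18.6, 9.53 and 15.6 CPM in the control libraries (log2 fold change −3.42, SE 0.48, adjusted p = 1.4e-04). Knock-down replicate 3 was the highest of the low group and still below every control. NID2, nidogen-2, a linker protein of basement membranes, was at 0.54, 1.23, 1.79, 0.473 and 0.834 CPM against 9.67, 14.7, 6.9 and 17.5 CPM (log2 fold change −3.61, adjusted p = 7.4e-05). ICAM2, a ligand of leukocyte integrins, had means of 4.54 ± 3.75 and 27.5 ± 2.83 CPM (log2 fold change −2.59, adjusted p = 4.2e-05). VASN, vasorin, which binds TGF-beta, fell as well (−2.53), but VASN lies within CORO7. SH2D6, an SH2-domain protein, fell with little spread among libraries (−3.04, SE 0.28), although SH2D6 overlaps CAPG. PLLP, plasmolipin, a membrane protein of myelin and epithelia, had −2.59, SHISA9, an auxiliary protein of AMPA receptors, −2.62, ABCA4, a lipid transporter of photoreceptors, −2.55, and CFAP73, a protein of motile cilia, −2.51. NID2 overlaps RTRAF and CFAP73 overlaps DDX54.

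PPARG, the nuclear receptor that drives fat cell formation and lipid storage, fell in all knock-down libraries. It was at 4.59, 4.49, 10.0, 12.8 and 3.89 CPM in the knock-down and 30.3, 40.3, 64.4 and 33.1 CPM in the control libraries, a gap that no library bridged (log2 fold change −2.59, SE 0.46, adjusted p = 0.0012). Its log2 fold change in CD133-negative cells was −1.98 (adjusted p = 0.13), and the interaction had an adjusted p of 0.80. Of 25 tested genes of fatty acid synthesis, storage and PPARG targets, PPARG was the 1 called lower and the desaturase FADS1 the 1 called higher (log2 fold change 0.61, adjusted p = 0.017). FADS1 lost its call without knock-down replicate 4 or control replicate 5 (adjusted p 0.018 to 0.072 over the 9 fits that left out a library). SNAR-G1, a small noncoding RNA of a multicopy family whose members may share reads, had means of 23.8 ± 12.9 and 142 ± 34.7 CPM (log2 fold change −2.56).

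The genes were then read by function in 90 lists, of which 74 had at least 1 called member. Counts in a list are best read against 5.99% called over all genes. Over all genes tested, 19.7% had an unadjusted p under 0.05. None of 17 tested genes of the EIF4G family and its cap-binding partners was called by edgeR or DESeq2, and 0 had an unadjusted p under 0.05. None of 29 other initiation factors was called by edgeR, 1 was by DESeq2, and 7 had an unadjusted p under 0.05. Of 14 elongation and termination factors 1 was called, EEF1A2. Of 79 cytosolic ribosomal protein genes 1 was called higher and 1 lower. RPL32 had means of 35.8 ± 11 and 16.4 ± 2.45 CPM (log2 fold change 1.12), and may share reads with the small RNA gene inside it. That level is far under the one of RPS6 given next, so how well it stands for RPL32 mRNA is uncertain. RPS6, a protein of the small ribosomal subunit, was at 2008, 2205, 2361, 2790.3 and 1446 CPM in the knock-down and 3241, 3842, 4470.0 and 3143 CPM in the control libraries (log2 fold change −0.77, adjusted p = 0.0074), a value near the 9p median of −0.66. The integrated stress response and amino acid supply (27 tested), p53 targets (21), immediate early genes (30), autophagy (32), growth factor receptors and ligands (29) and Hippo targets and regulators (27) also had 0 called by edgeR. Of these lists 0, 5, 4, 1, 4 and 4 genes had an unadjusted p under 0.05, and DESeq2 called 1 immediate early gene and 0 in the other lists.

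ALDH1A1, a retinaldehyde dehydrogenase widely used as an activity marker of stem-like cells, rose strongly. ALDH1A1 was at 124, 121, 128, 108 and 137 CPM in the knock-down and 22.8, 26.8, 24.6 and 22.6 CPM in the control libraries, both groups tight (log2 fold change 2.36, SE 0.15, adjusted p = 1.9e-09). It did so against the median of its arm, 9q. The difference from CD133-negative cells was 2.18 (SE 0.19, adjusted p = 9.9e-07). Of 11 tested aldehyde dehydrogenases 1 other was called, ALDH1B1, a mitochondrial member on 9p, which was lower (log2 fold change −0.97, adjusted p = 0.034). That call was lost without knock-down replicate 2, 4 or 5 or control replicate 1 or 5 (adjusted p 0.023 to 0.098). Retinoid genes moved both ways. DHRS3, which reduces retinaldehyde back to retinol and is itself a target of retinoic acid, was at 46.7, 67.4, 124, 86.1 and 46.4 CPM against 205, 280.3, 445 and 258 CPM (log2 fold change −2.01, SE 0.28, adjusted p = 1.1e-04). CRABP2, the protein that carries retinoic acid to its nuclear receptor, was higher (0.99), and lies on 1q. They were the called members of 13 tested genes of retinoid handling.

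Metallothioneins are small cysteine-rich proteins that bind zinc and copper and are induced by metals through the factor MTF1. In a list of metallothioneins and zinc genes 2 of 6 tested were called, both metallothioneins and both lower. The median of the whole list was −0.47. MT2A was at 960.3, 980.3, 1010.4, 574 and 579 CPM in the knock-down and 1072, 2792, 2423 and 1238 CPM in the control libraries (log2 fold change −1.20, SE 0.26, adjusted p = 0.0053). The highest knock-down value lay just under the lowest control, and control replicates 2 and 4 were far above control replicates 1 and 5. MT1X was at 10.8, 9.8, 19, 12.3 and 6.12 CPM against 11.4, 57.8, 80.1 and 16.1 CPM (log2 fold change −1.82, adjusted p = 0.027), with the same control replicates high and an overlap between the groups. MT1X lost its call without knock-down replicate 1, 2 or 5 or control replicate 2 or 4, with adjusted p between 0.0070 and 0.16. MT1F did not pass (log2 fold change −0.57, adjusted p = 0.21). Metallothionein genes are near-identical copies, so the share of each is uncertain. The start regions of MT2A at chr16:56608334-56608633 and MT1X at chr16:56682220-56682519, both on the plus strand, are shown because MTF1 acts through metal response elements there. Capitals mark matches to the core TGCGCNC and to the related TGCACNC on either strand, and no 2 matches overlap in these windows.
MT2A: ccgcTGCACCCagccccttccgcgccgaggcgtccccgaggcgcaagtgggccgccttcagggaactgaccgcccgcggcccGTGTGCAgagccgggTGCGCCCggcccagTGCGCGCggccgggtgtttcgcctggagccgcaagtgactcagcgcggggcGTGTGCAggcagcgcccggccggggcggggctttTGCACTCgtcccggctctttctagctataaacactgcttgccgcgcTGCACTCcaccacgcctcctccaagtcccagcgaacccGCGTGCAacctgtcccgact
MT1X: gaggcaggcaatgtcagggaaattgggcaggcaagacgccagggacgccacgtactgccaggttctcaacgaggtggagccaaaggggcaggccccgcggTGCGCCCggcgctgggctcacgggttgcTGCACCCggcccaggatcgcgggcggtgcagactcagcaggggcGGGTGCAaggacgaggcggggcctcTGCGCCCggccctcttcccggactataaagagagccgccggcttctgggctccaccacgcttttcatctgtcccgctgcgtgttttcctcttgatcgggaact
MT2A holds 2 matches to TGCGCNC and 6 to TGCACNC, and MT1X holds 2 and 2. Of 27305 RefSeq promoters of that length, 20.0% hold at least 1 TGCGCNC, 11.9% hold at least 1 TGCACNC and 0.593% hold 4 or more of either. A match is a run of letters and not a measured binding site.

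Sugar-handling enzymes were mostly lower where they were called. Of 48 tested mucins and glycosylation enzymes 3 were called higher and 9 lower, and outside the 5 arms 2 and 5. Beside FUOM, GALNT18, which belongs to the family that starts mucin-type O-glycans, was at 5.94, 4.49, 7.53, 4.26 and 6.67 CPM in the knock-down and 27.3, 30.2, 19.4 and 25.3 CPM in the control libraries (log2 fold change −2.12, SE 0.21, adjusted p = 1.7e-06). MGAT5, which adds the branch that is extended into large N-glycans, had −0.82, and B3GNT3, which extends O-glycan cores, −0.98. GALNT18 overlaps CSNK2A3.

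Guidance molecules of neurons, which also act between epithelial cells, moved in both directions. Of 26 tested semaphorins, plexins, netrins and their receptors 2 were called higher and 4 lower. SEMA6A, a transmembrane semaphorin, was at 8.64, 6.54, 8.25, 11.4 and 6.67 CPM in the knock-down and 0.645, 1.94, 1.31 and 0.243 CPM in the control libraries (log2 fold change 3.09, adjusted p = 4.2e-04). Its relative SEMA6B was at 1.62, 1.63, 2.15, 0.473 and 0.556 CPM against 12.5, 6.98, 7.88 and 9.25 CPM (log2 fold change −2.80, adjusted p = 1.9e-04), so that the 2 class 6 semaphorins changed in opposite directions with no overlap in either. The netrin receptor UNC5A, which overlaps HK3, fell (−1.80), as did the Slit receptor ROBO1 (−1.79) and SEMA4A (−1.62), a gene of 1q. Of 6 tested protocadherins and neural adhesion genes 2 were called, L1CAM and PCDH1, and both were lower. PCDH1, a protocadherin of airway epithelium among others, was at 19.2, 27.4, 27.6, 24.1 and 16.7 CPM in the knock-down and 52.2, 52.3, 91.3 and 67.9 CPM in the control libraries (log2 fold change −1.53).

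Junction genes also split. Of 34 tested genes of tight junctions, desmosomes and adherens junctions 3 were called higher and 2 lower. The claudin CLDN3 had means of 357 ± 62.7 and 185 ± 26 CPM (log2 fold change 0.95, adjusted p = 9.4e-04), and the kidney-type cadherin CDH16 rose too (1.12). CLDN9 fell (−2.09), with means of 4.22 ± 1.47 and 17.6 ± 3.38 CPM, and so did NECTIN2 (−0.76), a cell adhesion molecule on 19q. The gap junction protein GJB1 was at 30.2, 15.1, 6.1, 10.4 and 28.1 CPM in the knock-down and 7.95, 1.16, 1.97 and 5.84 CPM in the control libraries (log2 fold change 2.01, adjusted p = 0.010), where knock-down replicate 3 fell below control replicate 1.

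Of 33 tested epithelial keratins and epithelial genes 3 were called higher, all on 1q, and 1 lower. RAB25 was described above, and LAD1, ladinin, an anchoring protein of the basement membrane, had 0.82 as its log2 fold change. The tetraspanin TSPAN1 was lower, with means of 121 ± 29.1 and 233 ± 24.1 CPM (log2 fold change −0.94). TSPAN1 overlaps POMGNT1. In the list of integrins, laminins, collagens and basement membrane 4 of 39 were called higher and 3 lower. The heparan sulfate proteoglycan SDC1, syndecan-1, was lower (−0.67), as was the leukocyte integrin chain ITGB2 (−1.40), a gene of 21q that overlaps its antisense RNA. CST6, cystatin E/M, an inhibitor of lysosomal proteases, was at 96.1, 78.8, 61.7, 37.9 and 124 CPM in the knock-down and 365, 240.4, 185 and 453 CPM in the control libraries (log2 fold change −1.95, adjusted p = 0.0038). TFPI2, a Kunitz-type protease inhibitor of the extracellular matrix, was lower from a low level (−2.46).

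Among cytoskeletal genes fascin, which bundles actin filaments in cell protrusions, fell. FSCN1 was at 18.1, 18.8, 25.5, 11.8 and 14.5 CPM in the knock-down and 95.6, 49.2, 68 and 60.4 CPM in the control libraries (log2 fold change −1.94, SE 0.25, adjusted p = 4.7e-05). In CD133-negative cells its log2 fold change was 0.75, and the difference was −2.70 (SE 0.33, adjusted p = 6.0e-05). FHL1, a LIM protein of muscle, fell too (−2.50), and of 70 tested actin regulators 1 was called higher, SCIN, and 3 lower. RHOB, a small GTPase of endosomes, had means of 51.7 ± 20.6 and 135 ± 32.2 CPM (log2 fold change −1.38), while the exchange factor ARHGEF11 on 1q was higher (1.15). KIF12, a kinesin of kidney epithelia on 9q, was lower (−0.63), and so was RAB26, a GTPase of secretory vesicles (−2.26).

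Kinesin-1 moves cargo along microtubules with heavy chains such as KIF5B and light chains such as KLC1, KLC2 and KLC3. KIF5B was at 11.1, 10.6, 9.33, 9.46 and 7.23 CPM in the knock-down and 26.2, 37.2, 26.9 and 25.6 CPM in the control libraries, with control replicate 2 the highest and no overlap (log2 fold change −1.60, SE 0.45, adjusted p = 0.032). The call held only without knock-down replicate 1 among the 9 fits that left out a library, with adjusted p between 0.049 and 0.087. With replicate number as a block in the edgeR model, KIF5B had a log2 fold change of −1.73 (adjusted p = 0.0071). None of the 3 light chains was called in the main fit. KLC1 had a log2 fold change of −0.11 (adjusted p = 0.76), KLC2 one of 0.05 (adjusted p = 0.93) and KLC3 one of −0.74 (adjusted p = 0.075). KLC3 was called by limma-voom (adjusted p = 0.023) and, with edgeR, without knock-down replicate 4 (adjusted p 0.041 to 0.18 over the 9 fits). With the replicate block, edgeR called KLC3 too (log2 fold change −0.81, adjusted p = 0.0058). KLC3 lies on 19q and overlaps ERCC2, KLC1 overlaps XRCC3 and KLC2 overlaps PACS1.

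Transcription factors of development changed in both directions. Of 40 tested 4 were called higher and 2 lower. PBX3, a homeodomain partner of HOX proteins on 9q, was at 3.51, 2.45, 3.23, 1.42 and 2.5 CPM in the knock-down and 13.1, 11.6, 15.8 and 8.52 CPM in the control libraries (log2 fold change −2.17, SE 0.26, adjusted p = 2.6e-05). HOXA11, which patterns the uterus, was low in all libraries and lower in the knock-down (1.85 ± 0.364 against 4.41 ± 0.644 CPM, log2 fold change −1.24). Of 11 tested genes of Mullerian and endometrial epithelium HOXA11 was the 1 called lower, and 2 were called higher. Of these 3 calls 1, that of HOXA11, held with any 1 library left out. Of 17 tested HOX genes 1 was called higher and 1 lower. MEF2D, a MADS-box factor of muscle and neurons on 1q, was higher (0.88). TFEB, the main activator of lysosome genes, was lower (−1.42), and it was 1 of 2 called genes among 51 tested sphingolipid and lysosome genes. Of 271 tested ZNF zinc finger genes 6 were called higher and 7 lower, and the 7 that fell all lie on 19q. ZNF274 was the leading fall (−1.26) and ZNF32 the leading rise (1.18). Outside the 5 arms 177 ZNF genes had a median of 0.00, with 2 called higher and 0 lower.

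Genes of immunity were called in both directions. Of 17 tested genes of antigen presentation 3 were called, all lower. CD74, the invariant chain of class II molecules, was at 81.5, 98.8, 123, 117 and 113 CPM in the knock-down and 189, 249.7, 235 and 286 CPM in the control libraries (log2 fold change −1.17, adjusted p = 0.0011). TAP2, a peptide transporter for class I loading, was lower as well (−1.15). The complement component C3 had means of 22.4 ± 6.21 and 44.6 ± 9.19 CPM (log2 fold change −1.01). In contrast, IL6R, the interleukin 6 receptor on 1q, was at 7.29, 8.58, 10.4, 18 and 7.79 CPM against 1.93, 1.55, 1.64 and 2.19 CPM (log2 fold change 2.43, adjusted p = 6.8e-04). IL32, a cytokine of epithelia and lymphocytes, rose by 1.14 on the log2 scale. They were 2 of 3 called higher among 26 tested NF-kB targets, cytokines and chemokines, of which 2 were called lower.

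Metabolic enzymes, carriers and receptors changed one by one. AKR1C3, an aldo-keto reductase that acts on steroids and prostaglandins, had means of 152 ± 38.8 and 73.5 ± 1.89 CPM (log2 fold change 1.05), and its near-identical relatives may share reads. SAT1, which acetylates polyamines for breakdown, fell to 91.4 ± 16.2 CPM from 201 ± 48.7 CPM (−1.14). MAT2A, which makes S-adenosylmethionine and overlaps GGCX, was lower (−0.70), and so was the brain-type creatine kinase CKB (−1.45). Of 166 tested solute carriers 6 were called higher and 7 lower. The zinc transporter SLC39A11 was higher (1.20), while SLC16A3, the lactate exporter MCT4, which overlaps CSNK1D, was lower (−0.79), as was SLC7A7, a carrier of basic amino acids (−2.05). Among ABC transporters 1 of 23 was called higher, ABCA3, a lipid transporter of lung (1.15), and 3 lower, ABCB6 (−1.02) with ABCA4 and TAP2. SCNN1A, a subunit of the epithelial sodium channel and a target of the glucocorticoid receptor, was at 10.5, 12.7, 43.1, 35.5 and 11.1 CPM in the knock-down and 39.3, 85.3, 99.2 and 62.1 CPM in the control libraries (log2 fold change −1.68, adjusted p = 0.0096). Knock-down replicates 3 and 4 were the higher ones, and replicate 3 overlapped the control. SCNN1A overlaps LTBR. Of 47 G protein-coupled receptors and regulators 3 were called higher and 5 lower. The adenosine receptor ADORA2B fell by more (−1.64) than the orphan receptor GPRC5C (−0.95), which had the higher level.

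Growth, death and repair genes gave few calls. MCM2, a subunit of the replicative helicase, was the only called gene of 47 for replication and S phase (means of 273 ± 46.8 and 167 ± 10.9 CPM, log2 fold change 0.70). CKS1B, a partner of cyclin-dependent kinases on 1q, was the only one of 57 for mitosis (1.00). BIK, a death-promoting relative of BCL2, was at 32.7, 41.3, 56.3, 20.8 and 32.5 CPM in the knock-down and 87.7, 96.2, 83.4 and 106 CPM in the control libraries (log2 fold change −1.34, SE 0.20, adjusted p = 2.6e-04). DUSP23, a dual-specificity phosphatase on 1q, rose (1.46). None of 40 tested genes of double-strand break repair and none of 27 other repair genes was called in the main edgeR fit. Of these 4 and 7 had an unadjusted p under 0.05, and DESeq2 called 1 and 0. PARP1, which marks DNA breaks with poly-ADP-ribose and lies on 1q, was at 188, 159, 115, 97.9 and 174 CPM in the knock-down and 121, 64.8, 50.6 and 99.1 CPM in the control libraries (log2 fold change 0.80, SE 0.27, adjusted p = 0.070 in edgeR), and the groups overlapped. PARP1 was the repair gene that DESeq2 called, with adjusted p = 0.049. It was also called by limma-voom (adjusted p = 0.022), and edgeR called it too without knock-down replicate 4 or control replicate 1 (adjusted p 0.036 to 0.22 over the 9 fits). With replicate number as a block, edgeR called PARP1 as well (log2 fold change 0.91, adjusted p = 2.8e-05). The 3 members of the complex that first binds broken ends, RAD50, MRE11 and NBN, had log2 fold changes of 0.01 (SE 0.28), 0.22 (SE 0.25) and 0.33 (SE 0.45), and the topoisomerase TOP3A one of 0.05 (SE 0.23). Their adjusted p-values were 0.71 or more.

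Genes not annotated as protein coding made up 6.11% of the annotated genes tested, 4.87% of those called higher and 7.2% of those called lower. Of 102 long intergenic noncoding RNAs 2 were called higher and 6 lower. LINC01320 (1.89) and LINC02582 (2.14) were those that rose. LINC00869 was at 0.27, 2.04, 0, 0 and 0.834 CPM in the knock-down and 5.37, 12.4, 9.53 and 5.6 CPM in the control libraries, with 2 knock-down libraries at 0. Of 212 antisense, divergent and intronic transcripts 4 were called higher and 4 lower, and SERTAD4-AS1, which overlaps SERTAD4, cannot be told apart from it where counting ignores strand.

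**Figure D4:**
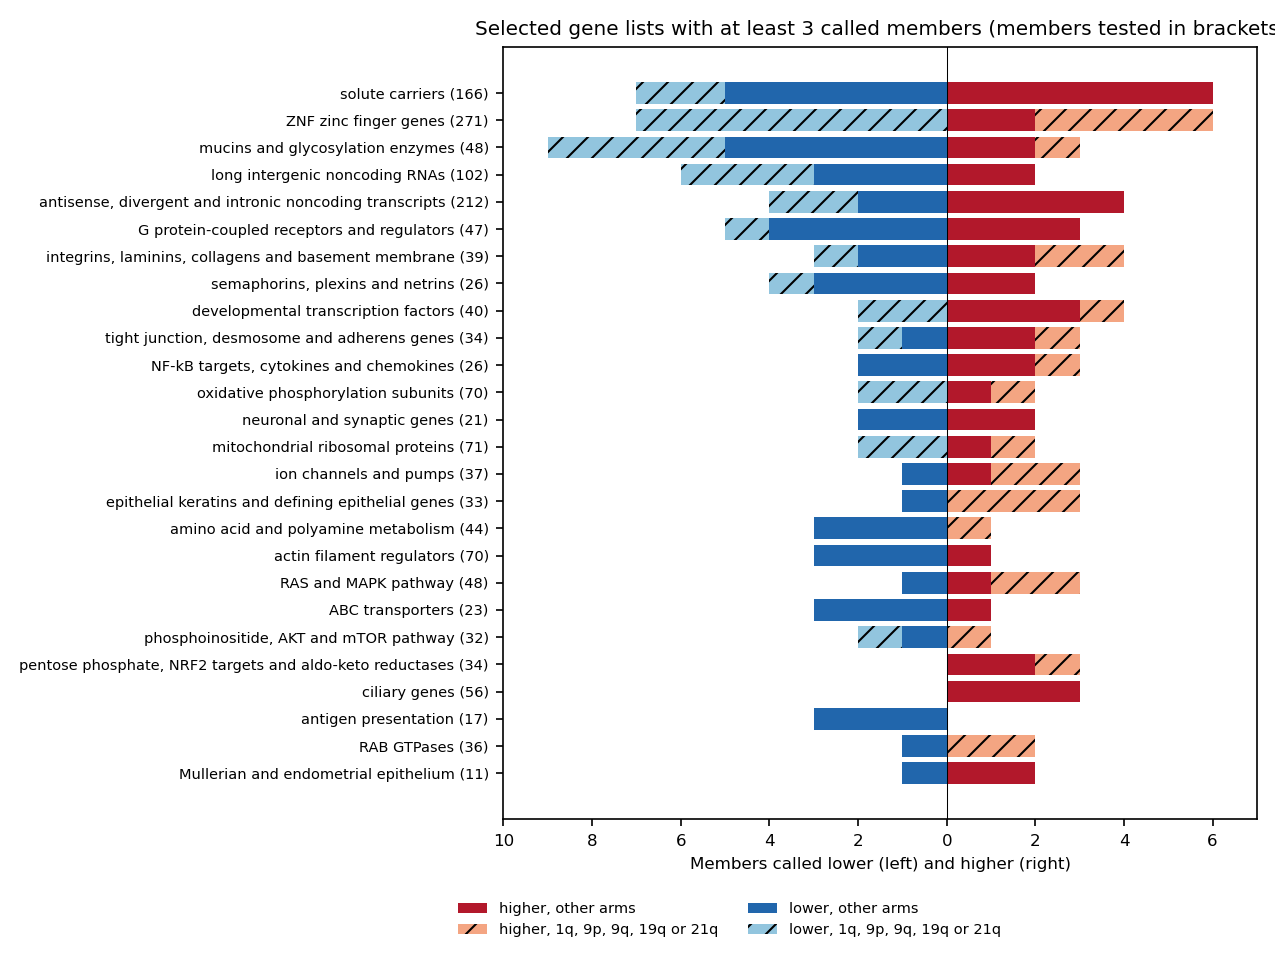
Number of called members of the gene lists, with members lower in the knock-down to the left and members higher to the right, split into those on 1q, 9p, 9q, 19q or 21q and those elsewhere. Glycosylation enzymes stand at 9 lower and 3 higher, solute carriers at 7 and 6, and the 7 lower ZNF genes are all on one of the 5 arms.

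The most abundant called genes had smaller fold changes than the genes with the largest rises and falls described above. SPP1, osteopontin, a secreted phosphoprotein of bone and of many carcinomas, was at 1128, 956, 828, 1384 and 945 CPM in the knock-down and 455, 470.3, 272 and 349 CPM in the control libraries (log2 fold change 1.44, SE 0.23, adjusted p = 3.9e-04). LGALS1, galectin-1, a lectin that binds surface glycans, was at 993, 1024, 593, 593 and 1019.7 CPM against 1694, 1557, 1215 and 1902 CPM (log2 fold change −0.91, adjusted p = 0.0097). Every knock-down library was above every control for SPP1 and below every control for LGALS1. H2AZ1, the histone variant H2A.Z, had means of 1765 ± 210.5 and 1101 ± 50.1 CPM (log2 fold change 0.68), and may share reads with its pseudogenes. The calcium-binding S100A6 was the most abundant of all, with means of 4946 ± 728 and 3242 ± 187 CPM (log2 fold change 0.61, adjusted p = 0.0038), and its fold change sits near the limit for a call, so that it was not called without knock-down replicate 1 or control replicate 5 (adjusted p 0.0041 to 0.019). It was the 1 called of 11 tested S100 genes, all on 1q, whose median was 0.36. PSMB4, a subunit of the proteasome core, had 0.71, and GUK1, guanylate kinase, 0.78, both on 1q, while NOSIP on 19q, which binds nitric oxide synthases, had −0.68.

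The same contrast in CD133-negative cells, 5 knock-down against 5 control libraries, called 1 gene of 10338 (0.00967%) in the same model. It was F2R, the thrombin receptor, with a log2 fold change of −2.24 there (adjusted p = 0.046), named here because it is the only one. How that count moves under other processing is not given here, and the study reports more genes for this contrast with DESeq2. On the scale of arm levels used above, CD133-negative knock-down replicates 4 and 5 had −0.28 and −0.51 on 4q, and replicates 1 to 3 had 0.01 to 0.07. So low a count does not show that the knock-down lacked an effect there. A test of the difference between the 2 fractions passed for 201 genes (1.94%). Of the 619 genes called in CD133+ cells 164 (26.5%) were among them, and of the 62 that changed by more than 2 on the log2 scale 32 were. Both tests use the same CD133+ libraries. Genes picked by the CD133+ contrast thus pass the second test more often by construction, and these shares are no independent support. For RAB25 the difference was 3.08 (SE 0.23, adjusted p = 1.2e-07), for TNNI3 3.34 (adjusted p = 8.4e-07) and for CRNDE 3.16 (adjusted p = 4.2e-05). POU3F3, EEF1A2, DHRS3, SH2D6 and SNAR-G1 also passed, with differences of 3.57, 4.03, −2.53, −3.18 and −2.60. PPARG, L1CAM, NID2 and PLLP did not. Their log2 fold changes in CD133-negative cells were −1.98, −1.73, −2.33 and −1.37, and the interaction had adjusted p of 0.80, 0.26, 0.51 and 0.27, which does not show that the fractions respond alike. MT2A had −0.66 there (interaction adjusted p = 0.60), and SPP1 0.38 (interaction adjusted p = 0.078).

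**Figure D5:**
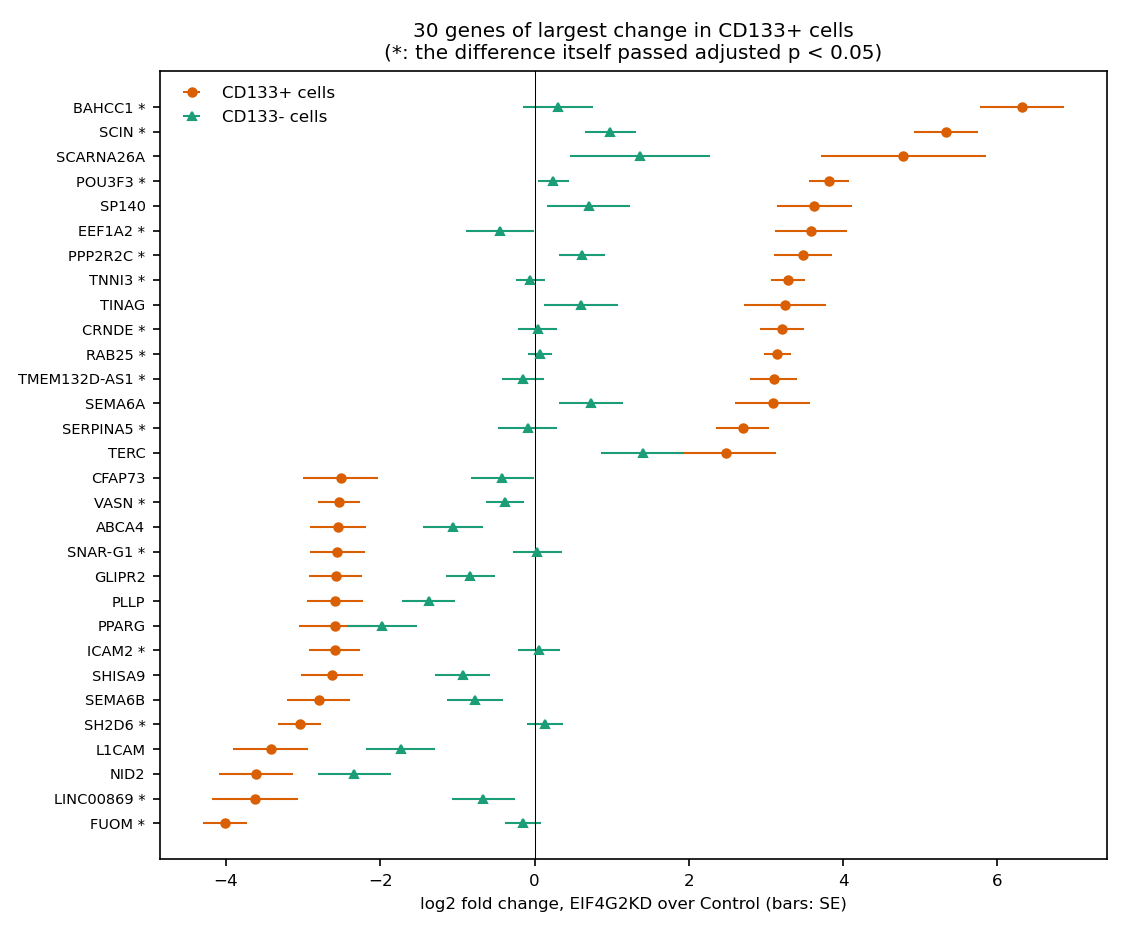
Log2 fold change of EIF4G2KD over Control in CD133+ cells and in CD133-negative cells for the genes with the largest changes in CD133+ cells, with bars for the standard error. BAHCC1 stands at 6.32 in CD133+ cells and 0.30 in CD133-negative cells, FUOM at −4.01 and −0.15, and PPARG at −2.59 and −1.98.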

How the data were processed

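HEC-1A libraries were made by MARS-seq, and the authors deposited raw counts of reads per gene, 1 column per library, with no normalisation. The submitters' processing notes name cutadapt, STAR 2.4.2a, HTSeq, DESeq2 and the builds hg38 and mm10. The use of strand and of molecular identifiers in the counting was not given in the sources used here. The deposited tables of the authors' own comparisons hold fold changes and p-values and were not used. The table held 12558 genes, of which 12106 matched RefSeq (GRCh38.p14) by symbol and 280 by an older symbol, and chromosome arms were taken from that match.

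Counts were tested with edgeR 4.0.16 in R 4.3.3 (filterByExpr with a minimum count of 10 and a total of 15, TMM, quasi-likelihood F test) in 1 model of all 19 libraries with a mean per population, and p-values were adjusted by Benjamini and Hochberg over 10338 genes. A call needed adjusted p under 0.05, a log2 fold change beyond 0.58 and a mean normalised count over 10, the study's thresholds. CPM are TMM scaled, SE is that of the log2 fold change, and groups of values are given in replicate order. EIF4G2 was also tested by exact permutation. All 16 pairs of libraries within the CD133+ populations differed by more than sampling noise, so none was taken as a repeat of another. Alternatives were DESeq2 1.42.0, limma-voom (limma 3.58.1), RLE scaling, no filter, a replicate block, only CD133+ libraries, other thresholds, arm medians subtracted and each library left out. The model was also run on counts simulated from its own fit. Genes vary independently there, so that run could not test for shifts shared along an arm or within a replicate. Named genes are those the study names, the 15 largest rises and falls without overlap, the 15 most abundant called genes, up to 5 called and 2 other members of each list, up to 4 genes per shifted arm and genes absent from a population, of which the text gives those whose function helps to read a comparison. The members, lists and rules were chosen with earlier results of these data known. Depth was 2198601 to 4640652 counts per CD133+ library, so genes of a few CPM rest on few counts. Results for some genes are not reported here.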

Additional observations from a re-analysis of the deposited data

Results flagged for a closer look

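In 1 library each, some genes lay apart from the other libraries of their population by more than Dixon's limit, which chance passes in about 1 of 20 such groups. With 123 genes in the text, several such flags are due to chance alone, and none is read as a result here. In CD133+ EIF4G2KD replicate 3 this held for FUOM at 8.61 CPM, L1CAM at 3.95 CPM, ICAM2 at 11.1 CPM and LINC01138 at 7.89 CPM, each the highest of the 5 values of a gene that was lower in the knock-down. In knock-down replicate 5 it held for MRE11 at 23.1 CPM, CRABP2 at 47.0 CPM and STOML2 at 153 CPM, and in replicate 2 for NOSIP at 519.96 CPM. Among the controls it held in replicate 2 for KIF5B at 37.2 CPM, ROBO1 at 8.92 CPM and MCM2 at 151 CPM, in replicate 4 for RPL32 at 20.0 CPM and ADORA2B at 19.4 CPM, and in replicate 1 for UBAP1 at 71.6 CPM. The level of arm 9q in control replicate 4 was 0.0391 on the log2 scale.

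For 53 of the genes in the text the knock-down log2 fold change differed between CD133+ and CD133-negative cells by edgeR's interaction test, with an adjusted p under 0.05. Most genes in the text were picked for their change in CD133+ cells, which enters that test too. The difference, CD133+ minus CD133-negative, is in brackets after each gene. It was positive for BAHCC1 (6.02), SCIN (4.35), EEF1A2 (4.03), POU3F3 (3.57), TNNI3 (3.34), TMEM132D-AS1 (3.25), CRNDE (3.16), RAB25 (3.08) and PPP2R2C (2.87). Smaller positive differences were those of SERPINA5 (2.78), IL6R (2.78), LINC01320 (2.20), ALDH1A1 (2.18), DAPK1 (1.68), IL32 (1.57), MEF2D (1.11) and ARHGEF11 (1.08). The most negative differences were those of FUOM (−3.86), SH2D6 (−3.18), LINC00869 (−2.96), FSCN1 (−2.70), RAB26 (−2.67), ICAM2 (−2.65), SNAR-G1 (−2.60), DHRS3 (−2.53), UNC5A (−2.37) and PCDH1 (−2.27). These were followed by VASN (−2.15), PBX3 (−1.98), GALNT18 (−1.80), BIK (−1.65), HOXA11 (−1.61), TFEB (−1.498), ALDH1B1 (−1.47), ABCB6 (−1.37), DHDH (−1.35) and TBC1D2 (−1.30). Then came CKB (−1.30), UBAP1 (−1.29), CLTA (−1.27), ZNF274 (−1.21), B3GNT3 (−1.10), STOML2 (−1.09), GPRC5C (−1.07), RPS6 (−1.07), TRPM2 (−1.04) and UBE2G2 (−1.002). The smallest were those of TSPAN1 (−0.97), MGAT5 (−0.95), FAM207A (−0.93), SDC1 (−0.90), NOSIP (−0.89) and KIF12 (−0.78).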

How the results depend on the processing

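The count of 619 called genes stayed within 1.5 times under most alternatives, with 627 under RLE scaling, 587 without the filter, 534 from the CD133+ libraries alone, 694 with DESeq2, 806 with limma-voom, 813 by adjusted p alone and 492 with a mean count over 30. Leaving out 1 library gave 466 to 617. It was 269 with a log2 fold change beyond 1, 394 after the median of each arm was subtracted and 336 over the genes outside the 5 arms, a choice made after seeing the data. The 5 arms were the same number under RLE and with any library left out. With the replicate block 1025 genes were called, 606 of the 619 among them, and 1143 from the CD133+ libraries alone. The interaction then passed for 678 genes against 201, and the 4 same-numbered pairs gave a mean EIF4G2 difference of −60.7 CPM (exact paired p = 0.125, the smallest 4 pairs allow). Whether to take the numbers as pairing was judged on the correlation of deviations. It was 0.54, 0.08, 0.54 and 0.42 for pairs 1, 2, 4 and 5, against −0.50 to 0.44 for the other 16 combinations. Only 2 knock-down libraries of 4 correlated best with their own number, so the main fit has no block. Yet 3 of the 4 same-numbered pairs were above 0.1, and any replicate effect they share is not used in the main fit. Of the called genes in the text, 0 lost the call with the block or DESeq2, and ALDH1B1, MT1X and HOXA11 lost it with CD133+ libraries alone. The block also called PARP1 (0.91, adjusted p = 2.8e-05) and KLC3 (−0.81, adjusted p = 0.0058), which edgeR without it did not. KLC2, RAD50 and TOP3A, none of which passed, changed sign. RAD50 had −0.10 with the block. With 1 library left out KLC2 ranged from −0.0509 to 0.163, RAD50 from −0.137 to 0.266 and TOP3A from −0.0476 to 0.153 on the log2 scale. Genes under a few CPM are limited by depth.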
